A study of Saccharomyces cerevisiae with 8 samples.

Results

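The peaks described here are the 233 places where the spliced form of the yeast transcription factor Gcr1, Gcr1(S), was mapped by chromatin immunoprecipitation sequencing (ChIP-seq) both at 12 h and at 6 h of growth. Each 6 h peak was paired with the 12 h peak that overlapped it by at least 1 bp on the same chromosome, and 233 of 233 found a partner. All 233 pairs stand at the same place in both deposited lists, so this full pairing is no test of shared binding. The 4 deposited lists, of Gcr1(S) and of the unspliced form Gcr1(U) at both times, hold 1064 listed peaks in all. Per the labels, Gcr1(S) came from BY4741 cells of strain JHY9321, GCR1S-TAP::his3MX6 GCR2-5Flag::hphMX6, harvested at 12 h, called the diauxic shift, or at 6 h, called exponential phase. The Gcr1(U) cells used for comparison were strain JHY9311, with GCR1U-TAP in place of GCR1S-TAP and the same GCR2-5Flag. Every group therefore carries a tandem affinity purification (TAP) tag on Gcr1 and a Flag tag on its partner Gcr2, and no untagged or input library was analysed here. Cultures of 10 mL in rich medium with 2% glucose started at an OD600 of 0.5 and were fixed with 1% formaldehyde for 25 min, and tagged protein was recovered on IgG-sepharose. Each group had 2 replicates, but the files hold 1 list per group, made in a way not stated, so the values below carry neither an error between replicates nor a test over them.

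Gcr1 is a DNA-binding activator of glycolytic and ribosomal protein genes in budding yeast. It acts with Gcr2, which supplies activation function, and with Rap1, which binds many of the same promoters. The GCR1 transcript contains an intron, and spliced and unspliced messages give different forms of the protein. At the diauxic shift yeast exhausts glucose, slows growth and turns to the ethanol it has made. tRNA genes and a few other small genes are transcribed by RNA polymerase III, and strongly transcribed loci of this kind are often recovered in yeast ChIP-seq with many unrelated tagged proteins.

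At 12 h a larger share of the listed tags lay at glycolytic promoters, and a smaller share at tRNA genes, than at 6 h. Other nuclear peaks, away from tRNA genes and chromosome ends, also held a larger share as a class, though single peaks were mixed. The value compared is the authors' normalized tag count, the tags in a peak's window scaled to library size. Its median over the 233 peaks was 250.0 at 12 h and 428.3 at 6 h, while the sum over all peaks was nearly equal, 115608 tags at 12 h and 117855 at 6 h. Most windows were 114 bp wide at 12 h and 170 bp at 6 h, so a 12 h count collects from a narrower stretch. From the steps in the values, the peaks held about 67268 unscaled tags at 12 h and 126578 at 6 h. Every ratio is 12 h over 6 h, and the range in brackets after it is an exact binomial 95% interval on these tags that covers counting error only. The interval lay above 1 at 65 peaks (27.9%), below 1 at 137 (58.8%) and spanned 1 at 31, with a median log2 ratio of -0.75. Since tRNA peaks make up most of the nuclear list, their fall sets the median of the nuclear peaks at -0.84, and values relative to that median, called centred, are 0.84 higher on the log2 scale. Centring gave 109 peaks above (46.8%) and 32 below (13.7%), and tags per bp gave 99 above (42.5%) and 102 below (43.8%). The median of the glycolytic promoters exceeded that of tRNA genes by 1.93 on the log2 scale, or 3.80-fold. Centring shifts all peaks alike and tags per bp nearly so, so neither can alter this gap. With the caller's fold over local background it was 1.15, or 2.22-fold.

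**Figure D1:**
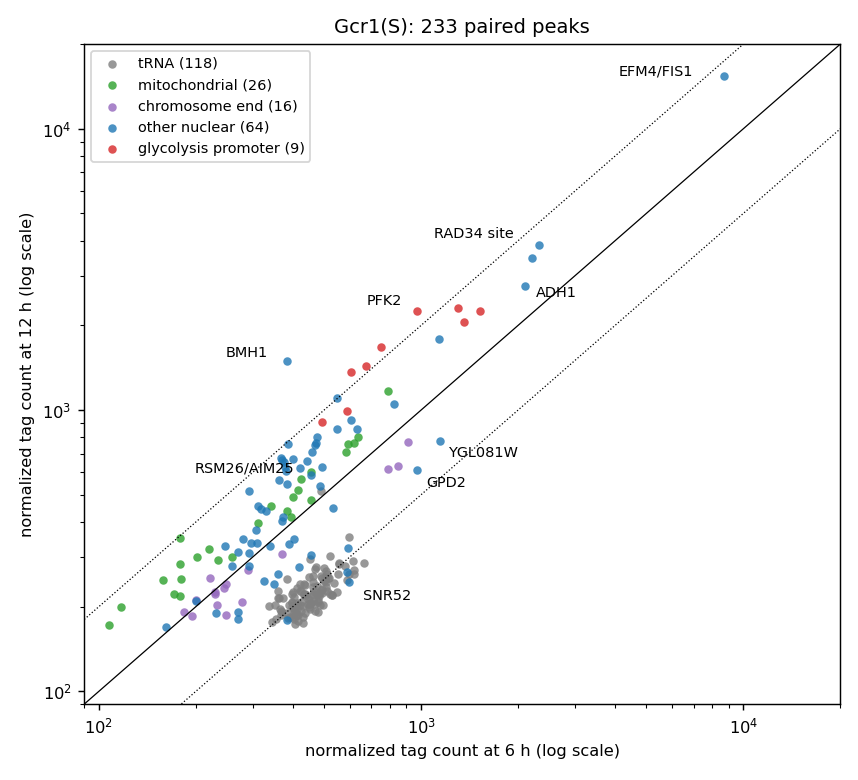
Normalized tag count of each of the 233 paired Gcr1(S) peaks at 12 h against 6 h on log axes, coloured by class, with a line at equal values. Glycolytic promoters lie above the line (ratios 1.48 to 2.31) and all but 1 of the 118 tRNA peaks lie below it.

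Glycolytic promoters had more tags at 12 h than at 6 h at all 9 members of the list that had a peak, each with an interval above 1. Their median log2 ratio was 0.88, with quartiles of 0.75 and 1.16, against -0.75 over all 233 peaks, and it was 1.73 after centring and 1.46 per bp. The median of other nuclear peaks was 0.35, so the gap to these was smaller, 0.53, and 0.42 with fold over local background. Of 17 listed glycolytic genes, 4 of 8 in the upper part of the pathway and 5 of 9 in the lower part had a peak. PGI1, which encodes phosphoglucose isomerase, had 2313 tags at 12 h and 1298 at 6 h, with a ratio of 1.78 (1.65 to 1.92). PFK2, a subunit gene of phosphofructokinase and the pathway's main control step, had 2249 tags at 12 h and 973 at 6 h, and its ratio of 2.31 (2.13 to 2.51) was the highest of the 9. Its 12 h peak spanned chromosome XIII 675217 to 675331, in the promoter that it shares with the divergent YMR206W. FBA1, the gene of aldolase, had 1437 tags at 12 h and 673 at 6 h, with a ratio of 2.14 (1.93 to 2.36). TPI1, the gene of triose phosphate isomerase, had the fewest tags of the 9 at both times, 907 at 12 h and 492 at 6 h, with a ratio of 1.84 (1.63 to 2.09). In the upper part the median ratio was thus 1.99, with a range of 1.78 to 2.31.

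The 5 genes of the lower pathway had a median ratio of 1.68, with a range of 1.48 to 2.25 that overlaps the range of the upper part. TDH3, the main glyceraldehyde-3-phosphate dehydrogenase gene, had 1365 tags at 12 h and 607.0 at 6 h, with a ratio of 2.25 (2.02 to 2.50). ENO2, the glucose-induced enolase gene, had 1670.3 tags at 12 h and 748 at 6 h, with a ratio of 2.23 (2.03 to 2.46). These 2 genes stood apart from the other 3 of the lower part. PGK1, phosphoglycerate kinase, had 993 tags at 12 h and 589.8 at 6 h, with a ratio of 1.68 (1.50 to 1.89). GPM1, phosphoglycerate mutase, had 2048 tags at 12 h and 1357 at 6 h, with a ratio of 1.51 (1.40 to 1.63). CDC19, the pyruvate kinase gene that ends the pathway, had 2247 tags at 12 h and 1517 at 6 h, the most of the 9 at 6 h, and the lowest ratio, 1.48 (1.38 to 1.59). Promoters with the most tags at 6 h (CDC19, GPM1 and PGI1) thus had 3 of the 4 smallest increases, next to PGK1. At 12 h the counts of the 9 promoters spanned 907 to 2313 tags and at 6 h 492 to 1517.

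The place of each glycolytic peak moved little. Centres lay 344 to 604 bp upstream of the start codon at 12 h and 344 to 640 bp at 6 h, and the median absolute shift was 6 bp. PGI1 was centred 349 bp upstream at 12 h and 344 bp at 6 h, ENO2 456 bp at both times and TDH3 458 bp at 12 h and 465 bp at 6 h. The CDC19 centre lay 604 bp upstream at 12 h and 640 bp at 6 h, a shift of 36 bp toward the gene. That peak spanned chromosome I 71125 to 71239 at 12 h, ahead of the gene at I 71786 to 73288.

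**Figure D2:**
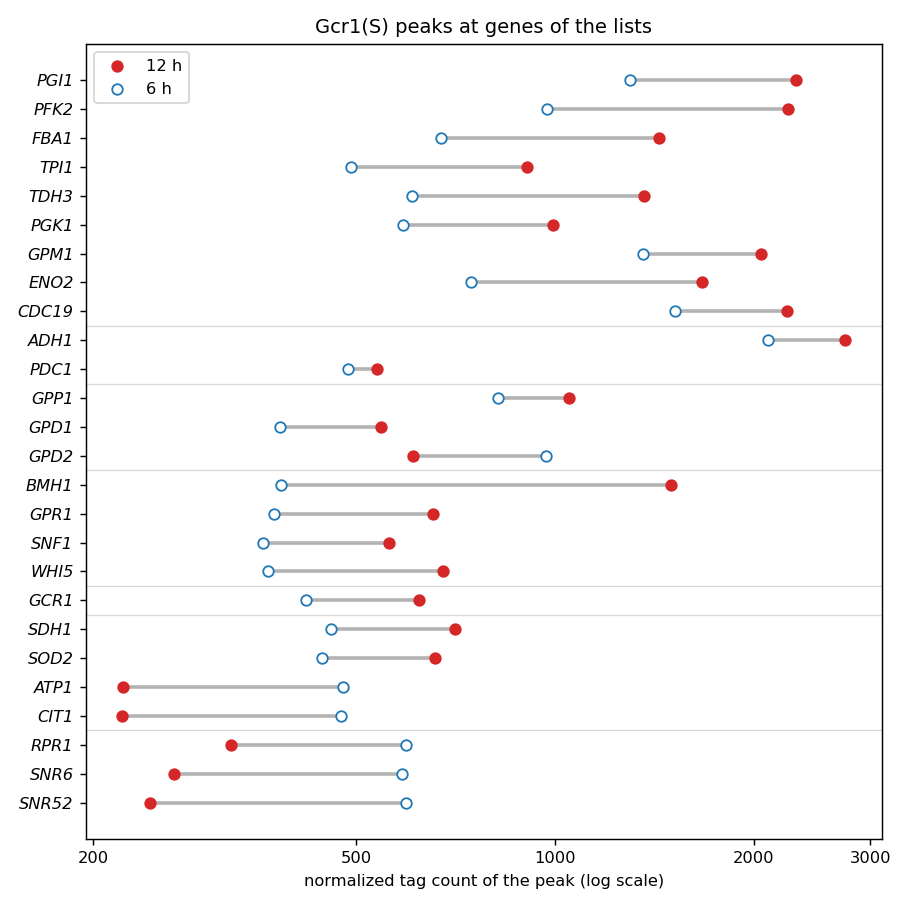
Normalized tag count at 12 h (filled) and at 6 h (open) for the listed genes with a Gcr1(S) peak, on a log axis. All 9 glycolytic promoters have the 12 h point to the right, GPD2 has it to the left of its 6 h point, and BMH1 shows the widest gap.

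Peaks assigned to genes that carry glycolytic carbon on to ethanol and glycerol moved less, and 1 moved the other way. ADH1, the main fermentative alcohol dehydrogenase gene, had 2750.4 tags at 12 h and 2099 at 6 h, with a ratio of 1.31 (1.23 to 1.40), and ranked 4 of 233 at both times. PDC1, the main pyruvate decarboxylase gene, had 539 tags at 12 h and 486 at 6 h, with a ratio of 1.11 (0.959 to 1.28) that spanned 1 as deposited and lay above it after centring and per bp. GPD1, the glycerol-3-phosphate dehydrogenase gene known for its osmotic induction, had 546 tags at 12 h and 384 at 6 h, with a ratio of 1.42 (1.22 to 1.65). GPP1, which encodes the phosphatase of the next step, had 1051 tags at 12 h and 821 at 6 h, with a ratio of 1.28 (1.15 to 1.42). GPD2, the paralog of GPD1 known for redox balance without oxygen, had 609 tags at 12 h and 969.7 at 6 h, with a ratio of 0.628 (0.556 to 0.710). The GPD2 window at 12 h spanned chromosome XV 216414 to 216528. The GPD1 count was thus 0.896 times that of GPD2 at 12 h and 0.396 times at 6 h. The GPD2 peak is shared with MAM3, whose start was nearer at 6 h (324 bp) than that of GPD2 (665 bp). The GPP1 peak likewise lay 160 bp from YIL054W and 732 bp from GPP1 at 6 h. Which gene these peaks bear on was not tested. After centring, and per bp, the GPD2 interval spanned 1, and with fold over local background the log2 ratio of GPP1 was -0.024.

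The single largest increase of the list was at BMH1, which encodes a phosphoprotein-binding adaptor that acts in nutrient signalling. Its promoter peak, at chromosome V 545234 to 545348 at 12 h, ahead of the gene at V 545611 to 546414, held 1496 tags at 12 h and 384.5 at 6 h. The ratio was 3.89 (3.45 to 4.38), and the peak ranked 11 at 12 h and 159 at 6 h. Among the 17 listed genes of glucose and growth signalling 4 had a peak, and each of the 4 had an interval above 1, as did 27.9% of all 233 peaks. All 4 belong to the other nuclear class, where 35 of 64 peaks lay above 1, and 57 of 64 after centring. An interval above 1 is therefore common among peaks of their class, and the list was chosen with earlier results of these data known. GPR1, which encodes a G-protein-coupled receptor for glucose, had 654 tags at 12 h and 376 at 6 h, with a ratio of 1.74 (1.51 to 2.01). SNF1, the kinase gene needed for growth without glucose, had 562 tags at 12 h and 362 at 6 h, with a ratio of 1.55 (1.34 to 1.81). WHI5, the gene of a repressor that delays entry into the cell cycle, shares its promoter peak with TGL5, a lipase gene, and had 677 tags at 12 h and 368 at 6 h, with a ratio of 1.84 (1.60 to 2.12). GPR1, SNF1, WHI5 and BMH1 all ranked below 150 of 233 at 6 h and within the first 50 at 12 h.

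GCR1 itself, the only member of 7 listed glycolytic regulators with a peak, had 622 tags at 12 h and 420.4 at 6 h, with a ratio of 1.48 (1.28 to 1.70). Its 12 h window, at chromosome XVI 412045 to 412159, was centred 152 bp ahead of the start codon and that at 6 h 194 bp ahead, a shift of 42 bp toward the gene. The tagged allele is at this same locus, and how far that bears on its tags was not tested. Respiration and oxidative defence had 4 of 26 listed genes with a peak. SDH1, a succinate dehydrogenase subunit gene, had 706 tags at 12 h and 459 at 6 h, with a ratio of 1.54 (1.35 to 1.76), and SOD2, mitochondrial superoxide dismutase, had 659 tags at 12 h and 444 at 6 h, with a ratio of 1.49 (1.29 to 1.70). The remaining members, ATP1 and CIT1, were lower, with ratios of 0.465 and 0.466, and both of their peaks overlap a tRNA gene. The lists of ethanol use and gluconeogenesis (13 genes) and of hexose transport (15 genes), had 0 members with a listed peak. Over all 6002 nuclear protein-coding genes 188 (3.13%) had a peak, so lists of this size would hold few or none.

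Outside these lists the strongest places at 12 h were also higher than at 6 h, but YGL081W, of rank 8 at 6 h, was lower (ratio 0.679). The highest peak at both times lay inside EFM4, a methyltransferase gene, and ahead of FIS1, a mitochondrial fission gene on the other strand, from chromosome IX 242144 to 242258. It had 15419 tags at 12 h and 8687 at 6 h, with a ratio of 1.77 (1.72 to 1.83), while the findPeaks score scaled by depth gave a log2 ratio of 0.20 in place of 0.83. Its fold over local background went the other way, 16.3 at 12 h and 45.3 at 6 h, as did that of the next peak, inside the DNA repair gene RAD34 (13.7 at 12 h and 16.7 at 6 h), whose tag ratio was 1.67 (1.58 to 1.77). The peak ahead of CIS1 had 3460.1 tags at 12 h and 2203 at 6 h, and that inside ATS1, near CCR4, an mRNA deadenylase gene, and FUN30, a chromatin remodeller gene, 1788 tags at 12 h and 1137 at 6 h, with a ratio of 1.57 for each. Only 6 peaks (2.58%) reached a ratio of 2, at BMH1, PFK2, TDH3, ENO2, FBA1 and FIG1. FIG1, a gene of mating cells, had 1107 tags at 12 h and 547.0 at 6 h, with a ratio of 2.02 (1.80 to 2.26), and its 12 h window lay at chromosome II 316866 to 316980. Next followed a site near ERG29, a sterol synthesis gene, with 1.96 (1.71 to 2.24), TPI1, WHI5, and AAH1, adenine deaminase, with 1.79 (1.55 to 2.06). A peak inside SHE10 lay ahead of VID30, a gene of the ubiquitin ligase complex that removes gluconeogenic enzymes. It had 516 tags at 12 h and 291 at 6 h, with a ratio of 1.77 (1.51 to 2.09).

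The other nuclear class, 64 peaks away from tRNA genes, chromosome ends and the glycolytic list, was mixed. Its median log2 ratio was 0.35 with quartiles of -0.22 and 0.65, and 35 peaks lay above 1, 14 below and 15 spanned it. After centring these counts were 57, 2 and 5. YGL081W, whose peak lies inside the neighbouring MIY3, stood among the 10 highest at 6 h and went down in rank: 779 tags and rank 24 at 12 h, 1147 tags and rank 8 at 6 h, with a ratio of 0.679 (0.608 to 0.756) that turned above 1 after centring. A peak 3743 bp away from the nearest tRNA gene, on the 3′ side of TDH3, had 179 tags at 12 h and 383 at 6 h, with a ratio of 0.466 set against 2.25 at the TDH3 promoter. Ribosomal protein genes, the other known target group of Gcr1, had 7 of 137 members with a peak, and their ratios ran from 0.436 at RPL26A, whose peak overlaps a tRNA gene, to 0.970 at RPL42B. Intervals lay below 1 at 5 of these 7, against 58.8% of all 233 peaks, and spanned it at 2, but after centring 5 lay above 1 and 1 below, and per bp 2 above and 1 below. Their direction therefore depends on the scale between the libraries. The heat shock list had SSA1 alone of 16 members, at a peak shared with the translation elongation gene EFB1, that held 209 tags at 12 h and 199.7 at 6 h, with a ratio of 1.05 (0.835 to 1.32). The trehalose and glycogen list had PGM1 of 13 members, with a ratio of 0.519 at a tRNA gene.

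At the tRNA genes the tags at 12 h were close to 0.485 of those at 6 h, and the change was uniform. The 118 peaks, 50.6% of the list, lay on 118 of 275 nuclear tRNA genes (42.9%), and each overlapped its gene at both times. Their counts had a median of 220.0 tags and a range of 172.7 to 515.5 at 12 h, against a median of 449.7 and a range of 338.0 to 662.4 at 6 h. The median log2 ratio was -1.04 with quartiles of -1.14 and -0.93, 117 intervals lay below 1, and 1 spanned it. After centring 30 lay below 1, 87 spanned it and 1 lay above, and per bp 98 lay below and 1 above, so the number separated from 1 depends on the scale. Many of these peaks stood near the lowest value listed at 12 h, 169.3 tags, against 107.5 at 6 h. The fold over local background had a median of 2.27 at 12 h and 2.92 at 6 h, with a lowest listed value of 2.00 at 12 h and 2.01 at 6 h. Of the 72 peaks with a ratio of at most 0.5 (30.9%), 69 were tRNA peaks. The smallest ratio, 0.399 (0.322 to 0.491), was at the tRNA gene ahead of PSH1, with 190.7 tags at 12 h and 478 at 6 h, and those ahead of VMA3 and HIT1 had 0.410 and 0.416. The 12 genes longer than 85 bp had a median log2 ratio of -1.03 and the 106 shorter genes -1.04. The single exception was the tRNA gene near RSM26 and AIM25 on chromosome X, where the count was 515.5 tags at 12 h and 487.4 at 6 h, the ratio 1.06, and the peak had a centre that moved by 101 bp. How reads of near-identical tRNA genes were assigned is not stated, so counts of single copies are uncertain.

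Of 5 other listed genes of RNA polymerase III 3 had a peak, each with an interval below 1, as had 58.8% of all 233 peaks. After centring 2 of them lay below 1 and RPR1 spanned it, and per bp all 3 lay below. RPR1, the RNA of RNase P, had 324 tags at 12 h and 594.5 at 6 h, with a ratio of 0.545 (0.459 to 0.640), but its log2 ratio of fold over local background was 0.018. SNR6, the U6 spliceosomal RNA, had 266 tags at 12 h and 588.0 at 6 h, with a ratio of 0.452 (0.375 to 0.537). SNR52, a small nucleolar RNA whose peak is also ahead of PMD1, had 244.0 tags at 12 h and 595 at 6 h, with a ratio of 0.410 (0.340 to 0.493). These 3 peaks are counted in the other nuclear class.

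**Figure D3:**
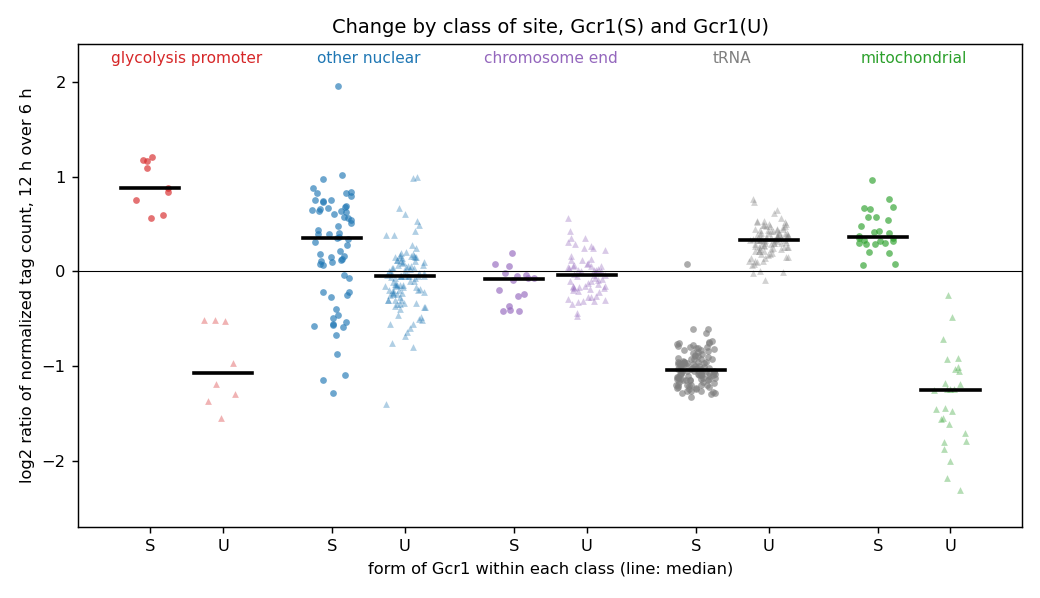
Log2 ratio of normalized tag count, 12 h over 6 h, for each peak of Gcr1(S) (left of each pair) and of Gcr1(U) (right), by class, with class medians. Gcr1(S) is above 0 at all 9 glycolytic promoters and below 0 at 117 of 118 tRNA genes, and Gcr1(U) shows the opposite order of these classes.

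The position of the peak on the tRNA gene also differed between the times. Measured along the direction of transcription, the centre lay a median of 45 bp after the start of the tRNA gene at 12 h (quartiles 26.5 and 65.5) and 23.5 bp after it at 6 h (quartiles 6 and 39). It lay further downstream at 12 h for 96 genes, further upstream for 21 and at the same place for 1, with a median shift of 20 bp. The median shift was 20 bp both for the 57 genes on the Watson strand (47 downstream) and for the 61 on the Crick strand (49 downstream), which run in opposite directions along the chromosome. At 12 h 93 centres lay inside the gene, 10 upstream and 15 downstream, against 88, 25 and 5 at 6 h. The 53 glycolytic and other nuclear peaks with an assigned gene had a median shift of 1 bp, with 27 downstream and 21 upstream. In Gcr1(U) the 98 tRNA peaks had the reverse shift, with a median centre 36 bp after the start at 12 h and 51 bp at 6 h, and 28 moved downstream and 70 upstream. Window widths differ between the lists, and what part this has in the positions was not tested. This measure was chosen after its values had been seen.

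**Figure D4:**
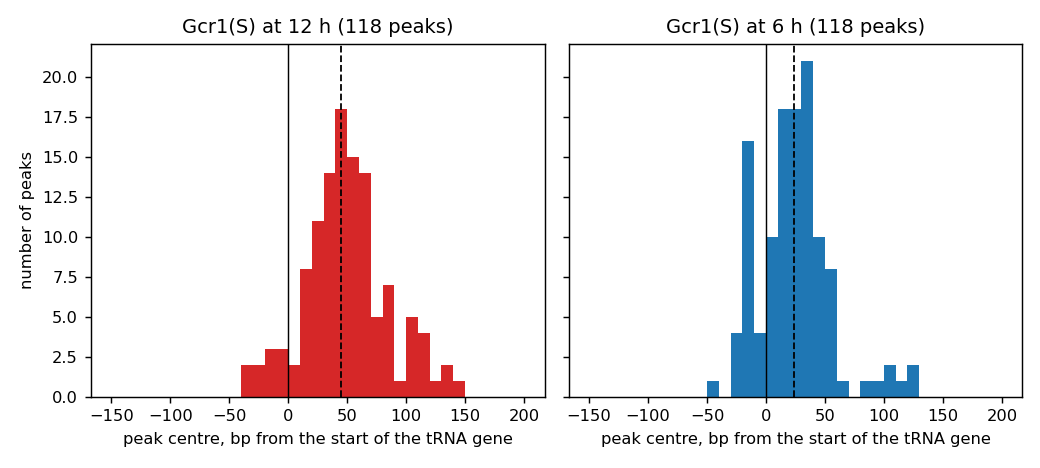
Number of tRNA genes by the distance of the Gcr1(S) peak centre from the tRNA gene start, in bp along the direction of transcription, at 12 h (left panel) and 6 h (right panel), with dashed lines at the medians. The 12 h median is 45 bp and the 6 h median 23.5 bp.

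Over all classes, centres stayed within 50 bp at 205 of 233 peaks (88.0%) and within 10 bp at 95 (40.8%), with a median absolute shift of 15 bp. The median was 6.5 bp for other nuclear peaks, 24 bp for tRNA genes and 15.5 bp for mitochondrial peaks, and 62 of 64 other nuclear peaks but 94 of 118 tRNA peaks stayed within 50 bp. The largest shift, 140 bp, was at the tRNA gene YNCG0020C. The others among the 5 largest were at tRNA genes near PUB1, DCD1 and HYM1 and at RPL2B, where the centre moved 103 bp. The 12 h window lay wholly inside the 6 h window at 164 pairs.

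At most glycolytic promoters and most other nuclear peaks HOMER's focus ratio was also higher at 12 h. It is the share of a peak's tags that fall where a single binding site would put them. Over all pairs the focus ratio was higher at 12 h at 119 (51.1%) and lower at 113 (48.5%), so the list as a whole gave no direction. At glycolytic promoters the median was 0.839 at 12 h and 0.786 at 6 h, and 8 of 9 were higher. The exception was CDC19, with 0.839 at 12 h and 0.855 at 6 h. Other nuclear peaks had medians of 0.695 at 12 h and 0.645 at 6 h, with 50 of 64 higher. tRNA peaks had 0.662 at 12 h and 0.679 at 6 h, with 43 higher, 74 lower and 1 equal, and mitochondrial peaks had 0.774 at 12 h and 0.786 at 6 h, with 9 higher and 17 lower. Among the 5 largest gains were BMH1, TPI1, WHI5, the site near ERG29 (0.768 at 12 h and 0.646 at 6 h) and AAH1 (0.851 at 12 h and 0.720 at 6 h). The 5 largest losses were at peaks overlapping or beside tRNA genes, the first of them ahead of PFS1, with 0.671 at 12 h and 0.770 at 6 h. Across the 89 nuclear peaks that are not at tRNA genes, the change of focus ratio and the log2 ratio of tags had a Spearman coefficient of 0.67, and over all 233 peaks 0.55. Both measures come from the same tags and windows, so this is a description. Window widths and unscaled tag numbers differ between the lists, and what part these have in the focus ratio was not tested.

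**Figure D5:**
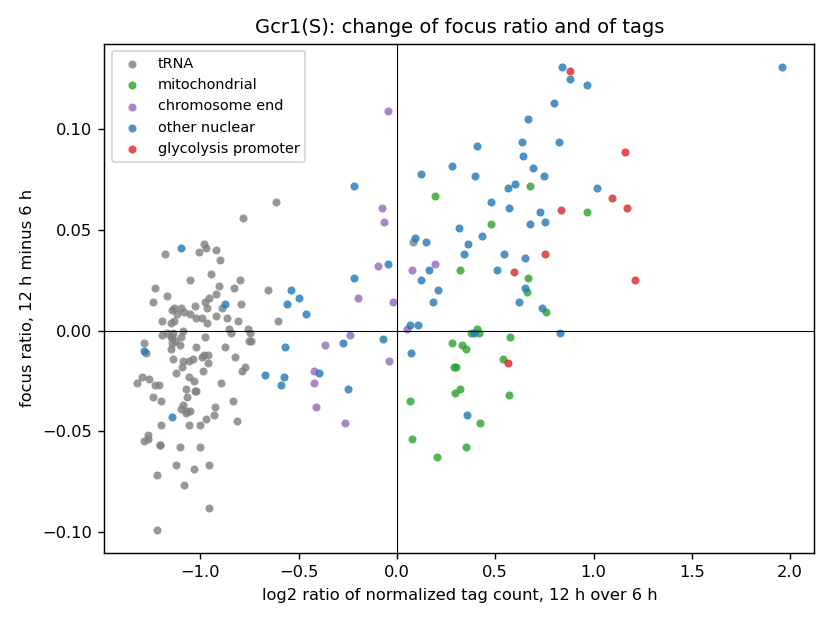
Focus ratio at 12 h minus 6 h against the log2 ratio of normalized tag count, 12 h over 6 h, for the 233 paired Gcr1(S) peaks, coloured by class. Of the glycolytic promoters 8 of 9 lie in the upper right, with more tags and a higher focus ratio at 12 h, and tRNA peaks lie to the left around 0 (43 higher, 74 lower).

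Rank and share within a list do not need a scale between the libraries. The share of listed tags at the 9 glycolytic promoters, 3.86% of the peaks, was 13.2% at 12 h (exact binomial interval 12.9 to 13.4) and 7.0% at 6 h (6.86 to 7.15). tRNA genes held 23.0% (22.7 to 23.4) at 12 h and 45.7% (45.4 to 45.9) at 6 h, and other nuclear peaks 49.4% (49.0 to 49.7) at 12 h and 34.9% (34.6 to 35.1) at 6 h. The EFM4 peak alone held about 8973 of the 33208 unscaled tags of other nuclear peaks at 12 h, and 9331 of 44123 at 6 h. The first 20 peaks by tags held all 9 glycolytic promoters at 12 h and 6 at 6 h. The first 50 held 0 tRNA genes at 12 h and 18 at 6 h, and 31 other nuclear peaks at 12 h and 16 at 6 h. Median rank was 10 at 12 h and 17 at 6 h for glycolytic promoters, 54.5 at 12 h and 160 at 6 h for other nuclear peaks, and 158 at 12 h and 102.5 at 6 h for tRNA genes. The order was largely kept apart from this exchange: the tags at 12 h and at 6 h had a Spearman coefficient of 0.83 over the 89 nuclear peaks away from tRNA genes and of 0.69 within tRNA genes, against 0.38 over all 233, as a description over peaks that share 1 library per time.

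Peaks near chromosome ends and in the mitochondrial genome lie in repeated or abundant DNA, where read assignment is uncertain. The 16 chromosome-end peaks had a median of 229 tags at 12 h and 246 at 6 h and a median log2 ratio of -0.09, with 6 intervals below 1 and 10 spanning it. All 16 lay above 1 after centring, and their ratios ran from 0.745 at IMD2 to 1.14 at YLL067C. The 26 mitochondrial peaks had a median of 406 tags at 12 h and 326 at 6 h and a median log2 ratio of 0.36, with 21 above 1 and 5 spanning it. With fold over local background their median was -0.01, and 13 were higher and 13 lower. Ratios there ran from 1.05 at OLI1, an ATP synthase subunit gene, to 1.96 (1.59 to 2.39) in an intron of COB, the cytochrome b gene. With no untagged library the part of background in these peaks was not tested.

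By tag counts as deposited, the change over time in Gcr1(S) ran opposite to that in Gcr1(U) at most of the places that both forms share. Of the 233 pairs 162 overlapped a pair of Gcr1(U). At these the ratio of Gcr1(S) divided by that of Gcr1(U) had an interval above 1 at 53 (32.7%) and below 1 at 91 (56.2%), and at 114 (70.4%) the intervals of the forms lay on opposite sides of 1. At the 8 shared glycolytic promoters the median log2 ratio was 0.96 in Gcr1(S) and -1.08 in Gcr1(U), and all 8 lay on opposite sides. FBA1 had 1437 tags at 12 h and 673 at 6 h in Gcr1(S), and 484 tags at 12 h and 1417 at 6 h in Gcr1(U), so the ratio in Gcr1(S) was 6.25 (5.48 to 7.13) times that in Gcr1(U). CDC19 had the smallest gap of the 8, 2.11 (1.92 to 2.32). The peak shared by GPD2 and MAM3 was reversed, with ratios of 0.628 in Gcr1(S) and 1.52 (1.40 to 1.65) in Gcr1(U). At the 81 shared tRNA genes the median was -1.05 in Gcr1(S) and 0.33 in Gcr1(U), and all 81 intervals of the difference lay below 1. GCR1 had a ratio of 1.48 in Gcr1(S) and 0.718 (0.634 to 0.813) in Gcr1(U), and ADH1 1.31 in Gcr1(S) and 0.379 (0.362 to 0.397) in Gcr1(U). After centring each form on its own nuclear median, the gap between the forms was 3.0 at glycolytic promoters and -0.46 at tRNA genes on the log2 scale, and per bp 2.54 and -0.93. With fold over local background it was 1.48 and -0.58. That all 81 tRNA genes lay on 1 side therefore belongs to the deposited scale. After centring the difference turned above 0 at some of them, UBA2 and MCD4 among these. By fold over local background it was below 0 at 79 of the 81 and above 0 at 2. The 25 shared mitochondrial peaks had medians of 0.35 in Gcr1(S) and -1.44 in Gcr1(U) by tags, but -0.03 in Gcr1(S) and 0.43 in Gcr1(U) by fold over local background, so the sign of their difference depends on the measure. Among the 71 peaks of Gcr1(S) alone, 31 other nuclear ones, BMH1 among them, had a median log2 ratio of 0.31 and 37 tRNA genes one of -1.0.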

How the data were processed

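Peak lists of Gcr1(S) from 12 h and 6 h cultures were compared, with those of Gcr1(U) beside them. The 4 lists come from HOMER's findPeaks, per the file headers, and each pools the 2 replicates of a group or was made in a way not given in the sources used here. The submitters' processing notes name, without roles, the tools HOMER, BWA 0.7.15, Picard 2.92, bedtools, FastQC 0.10.1 and bcl2fastq 1.8.2, and the build sacCer3. The signal the authors deposited is a normalized tag count. Also deposited by the authors were the findPeaks score, the focus ratio (a fraction), the fold over local background (a ratio) and the p-value against local background, which was not used, nor was the clonal fold change.

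How the authors matched the lists over the times is not stated. Pairs stand at the same place in both lists, so their overlap is no test, and a place bound at 1 time only would not be listed.

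The values lie on a grid (99.6% of 12 h and 98.3% of 6 h values within 0.05 of a step), taken as 0.5 tags, so that 1 unit is 0.582 tags at 12 h and 1.07 at 6 h. Exact binomial 95% intervals rest on these tags, and those of a difference between the forms are normal intervals on the log scale; with no molecular identifiers, PCR copies among the reads are not independent molecules. The labels call the replicates only separate samples.

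A gene was assigned to a centre 1000 bp upstream to 200 bp downstream of its start codon (RefSeq table of R64, whose coordinates sacCer3 shares). Classes, in order, were mitochondrial, within 500 bp of a tRNA gene, rDNA (0 peaks), within 10000 bp of a chromosome end, glycolysis promoter and other nuclear. The rule for naming took list members, the 10 highest peaks per time, and the 10 largest and 10 smallest nuclear ratios. It also took the 3 of each in the mitochondrial genome, and the 5 largest changes of rank, focus ratio and centre. The text leaves out part of these. Not named are some of the smallest nuclear ratios, all at tRNA genes, and some mitochondrial ratios, rank changes and losses of focus ratio. The site on the 3′ side of TDH3, the exception among tRNA genes, IMD2 and YLL067C were named after their values were seen. The same rule asked for tRNA isoacceptor families, which the annotation used here does not give. Members and lists were chosen with earlier results of these data known. Alternatives were centring, tags per bp, fold over local background, score, the upper 50% by score, stricter overlap and assignment, and step size. Intervals were run on simulated tags that varied by counting error alone. They covered the true ratio at 94.0%, 96% and 94% of peaks with true ratios of 1, 2 and 0.5. Such tags hold no replicate error, PCR copies or change of window width, so the simulation cannot test the intervals against these. Python 3.11.15, pandas 2.3.3, numpy 2.4.6 and scipy 1.17.1 were used.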

Additional observations from a re-analysis of the deposited data

Results flagged for a closer look

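In 3 classes of peaks the change over time differed in direction between the forms by tag counts as deposited, at the places they share. At the 8 shared glycolytic promoters the median difference of the log2 ratio of 12 h over 6 h, Gcr1(S) minus Gcr1(U), was 2.08, with all 8 higher in Gcr1(S) at 12 h and all 8 lower in Gcr1(U). At the 81 shared tRNA genes it was -1.39, and at 66 of them the intervals lay on opposite sides of 1. At the 25 shared mitochondrial peaks it was 1.83, with 19 on opposite sides. This mitochondrial difference turned to -0.42 with fold over local background, where 24 of the 25 were higher at 12 h in Gcr1(U) and 12 in Gcr1(S), while the glycolytic one was 1.48 and the tRNA one -0.58. These differences rest on counting error of 1 list per form and time, and no replicate test exists for them.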

How the results depend on the processing

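Glycolytic promoters stayed above 0 and tRNA genes below 0 in their class medians under each alternative run, but the levels move with the scale. Centred on the nuclear median, the log2 medians were 0.094 over all pairs, 1.73 at glycolytic promoters, 1.19 at other nuclear peaks, 0.76 at chromosome ends, -0.20 at tRNA genes and 1.21 in the mitochondrial genome, with 109 intervals above and 32 below 1, 72 ratios of at least 2 and 0 of at most 0.5. Per bp they were, in the same order, -0.17, 1.46, 0.93, 0.44, -0.47 and 0.94, with 99 above, 45 of at least 2 and 0 of at most 0.5. With fold over local background the median was -0.15 over all pairs, 0.072 at chromosome ends, -0.32 at tRNA genes and -0.01 (-0.0079) in the mitochondrial genome, with 3 of at most 0.5. The upper 50% by 6 h score gave -0.96 over all pairs, -0.36 at chromosome ends, 32 above and 82 below.

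Direction turned at RPL2B (0.25), RPS24A (0.27), RPL1B (0.35), RPS19B (0.38), YGL081W (0.28) and GPD2 (0.17) after centring. Per bp it turned at RPS24A (0.0015), RPL1B (0.079), YGL081W (0.017) and RPS19B (0.12). Fold over local background turned EFM4 (-1.47), RAD34 (-0.29), GPP1 (-0.024), RPL2B (0.038), RPR1 (0.018), RPL1B (0.070) and RPS19B (0.16). The peaks named so far are those whose interval as deposited lay off 1. RPL29 and RPL42B, whose intervals spanned 1, also went from below 0 to above 0 under all of these alternatives. OLI1 (-1.09) and a peak in COB (-0.46), with intervals that spanned 1 too, went below 0 with fold over local background. With centres within 500 bp upstream, 21 list members had a peak. Among the genes of glycolysis, fermentation and glycerol synthesis, some 6 h centres lay farther upstream than that. These were PFK2 (504 bp), CDC19 (640 bp), ADH1 (666 bp), PDC1 (608 bp), GPD2 (665 bp) and GPP1 (732 bp). Without mitochondrial peaks the shares of listed tags were 14.7% at 12 h and 7.58% at 6 h at glycolytic promoters, 54.9% at 12 h and 37.7% at 6 h at other nuclear peaks, and 25.6% at 12 h and 49.4% at 6 h at tRNA genes. The difference between the forms, each centred, was 3.0 at glycolytic promoters, 1.69 at other nuclear peaks, 0.79 at chromosome ends, -0.46 at tRNA genes and 2.76 in the mitochondrial genome, and per bp it was 1.23, 0.33, -0.93 and 2.29 for the last 4. The cause of these changes was not tested beyond the construction of each alternative. With fold over local background, an alternative chosen after seeing the data, it was -0.58 at tRNA genes and -0.42 in the mitochondrial genome. Score, stricter overlap, step size and tRNA overlap turned no direction and moved no count of calls by over 1.5 times, but the score lowered the log2 ratio of EFM4 to 0.20 and that of RAD34 to 0.63.

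No paired analysis was possible because each group has 1 list, and for the same reason replicates were not left out in turn. Depth limits the lowest peaks, the lowest of all at 12 h holding about 98.5 unscaled tags.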
